A study of Mus musculus with 6 samples.

Results

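Genes of the Hippo pathway and its transcriptional output were compared between 4T1-T cells that took up much or little acetylated low-density lipoprotein (acLDL), a cargo that endothelial cells take up readily. The 36 genes were chosen by symbol, as 19 components of the pathway and 17 genes known as targets of YAP, out of 15973 protein-coding genes that the study compared and 53379 gene IDs that were counted. Of the 36, 35 were in the comparison and passed the filter on low counts, and the exception was the target Igfbp3, which had 0 counts in all 6 libraries. The cells are the VM sub-clone 4T1-T, which is 1 clone of the mouse mammary carcinoma line 4T1 able to form vessel-like networks (vascular mimicry), kept in RPMI with 10% FBS. All cells were starved of serum overnight in Opti-Mem with 0.3% BSA, fed Alexa-488-tagged acLDL (10 ug/mL) for 4 h and returned to complete growth medium for 1 h. They were then sorted into the brightest 25% (acLDL-high) and the dimmest 25% (acLDL-low). No other treatment or genotype separated the groups, and no unexposed cells were among the libraries. RNA-Seq was done for 3 acLDL-high and 3 acLDL-low populations from separate occasions, so that the high and low libraries with the same number form a pair.

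Hippo signaling is a kinase cascade in which MST kinases, with the scaffold SAV1, switch on LATS kinases, with MOB1 proteins as cofactors. LATS kinases phosphorylate the coactivators YAP and TAZ and hold them out of the nucleus. Where the cascade is off, YAP and TAZ enter the nucleus and bind TEAD factors, which carry them to the enhancers and promoters of genes for matrix, cytoskeletal and growth control. Much of this control acts on the proteins, which RNA counts do not measure. In bulk RNA, fewer cells that express a gene and less RNA per cell cannot be told apart.

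The totals ranged from 70263372 to 94216786 counts per library, so 3 counts were worth between 0.0323 and 0.0429 CPM (counts per 1000000 counts of the library, scaled by TMM). The epithelial label was borne out by its markers, since 10 of 10 mammary epithelial markers were detected above 1 CPM, with Krt8 at 1102 ± 250 CPM in acLDL-low cells (SD, n = 3) and Cdh1 at 811 ± 45.8 CPM (SD, n = 3). Of these, Cldn4, Cldn7 and Esrp1 were higher in acLDL-high cells, and the list summed to 3365 to 5636 CPM in acLDL-low and 3789 to 6012 CPM in acLDL-high cells. Markers of other cell types were scarce, and Cd14 (log2 fold change 0.32) and Postn were the called genes among them. Their part in the results was not tested. The summed level of the 10 macrophage markers was 19.2 to 21.6 CPM in acLDL-low and 20.1 to 24.4 CPM in acLDL-high cells, mostly from Cd14 and Cd68, with 7 of 10 under 1 CPM and Adgre1 and C1qa at 0. The 10 endothelial markers summed to 70.7 to 101 CPM in acLDL-low and 74.1 to 105 CPM in acLDL-high cells, nearly all from Eng, with 8 of 10 under 1 CPM and Flt4, Emcn and Cldn5 at 0. The 10 fibroblast markers summed to 30.3 to 42.0 and 33.0 to 44.5 CPM, nearly all from Pdgfra, with 8 of 10 under 1 CPM and Col3a1, Lum and Thy1 at 0. The 3 fibroblast markers that were tested, Postn among them, had log2 fold changes from 0.083 to 0.88.

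Of the 35 genes tested, 4 were higher in acLDL-high cells and 0 were lower at an adjusted p under 0.05 (edgeR quasi-likelihood test with the pair as a block, adjusted over all 12572 genes tested). These were the targets Ccn1, Ccn2 and Ankrd1 and the angiomotin gene Amotl2, which is itself known as a target of YAP. The other 31 did not pass, among them 18 of the 19 components and 13 of the 16 targets tested. Over all genes tested, 4.75% were called, 3.43% as higher and 1.32% as lower. Among components 1 of 19 was called (5.26%), and among targets 3 of 16 (18.8%). The members were chosen with earlier results of these data known. The median log2 fold change was 0.045 for components and 0.094 for targets, against 0.0017 for all genes tested. All 4 called genes were higher in 3 of 3 pairs. The same direction in all 3 pairs was seen for 7 of 19 components and 6 of 16 targets, all of them higher in acLDL-high cells, against 40.4% of all genes tested in either direction. For 0 of the 35 genes were the 2 groups of 3 libraries apart without overlap, against 2.86% of all genes tested.

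**Figure D1:**
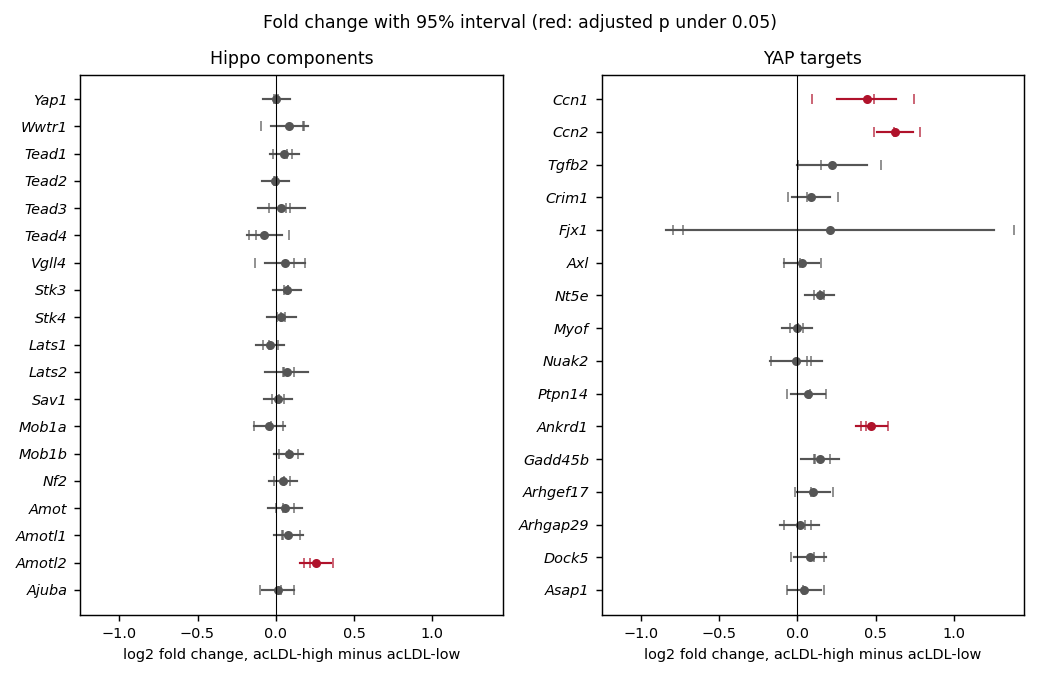
Log2 fold change (acLDL-high minus acLDL-low, x axis) of the 19 components and 16 targets tested, with the 95% interval of the edgeR fit as a line, the estimate as a point and the 3 pair differences as ticks. Genes in red had an adjusted p under 0.05. Ccn2 at 0.62, Ankrd1 at 0.47, Ccn1 at 0.44 and Amotl2 at 0.26 lay to the right of 0, while the intervals of Yap1 and the 4 Tead genes spanned it.

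The coactivators come first. Yap1, which encodes YAP (chromosome 9 of GRCm38, 7931999 to 8004596), was at 169, 133 and 164 CPM in acLDL-low and 167, 134 and 164 CPM in acLDL-high cells of pairs 1, 2 and 3. The populations of each pair were nearly level, and the occasions differed more. The log2 fold change was 0.0023 (SE, standard error, 0.04, 95% interval -0.08 to 0.09, edgeR adjusted p = 0.983). Wwtr1, which encodes TAZ (chromosome 3, 57455649 to 57575910), was at 261, 280 and 375 CPM in acLDL-low and 294, 262 and 425 CPM in acLDL-high cells. Its level was above that of the acLDL-low partner in pairs 1 and 3 and below it in pair 2, and its log2 fold change of 0.09 (SE 0.05, 95% interval -0.03 to 0.20) had an edgeR adjusted p of 0.428. Leaving out pair 2, which goes the other way, gave 0.17 with an edgeR adjusted p of 0.0220. Calls over all genes tested also rose without pair 2, from 597 to 869. Without pair 1 and without pair 3, Wwtr1 was at 0.043 and 0.040 (edgeR adjusted p = 0.793 and 0.860). It was called in 1 of 9 alternative settings. Per kilobase of exon, Wwtr1 was the higher of the pair of coactivators in every library, at 54.6 to 88.9 against 14.3 to 18.2 CPM per kb for Yap1, a ratio of 3.0 to 5.0. With the length of the longest transcript in place of all exons the ratio of the means was 2.29.

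The TEAD genes encode the DNA-binding partners. Tead1 was at 209, 235 and 217 CPM in acLDL-low and 224, 247 and 214 CPM in acLDL-high cells of pairs 1, 2 and 3. Tead2 was at 83.0, 66.6 and 93.8 against 83.5, 66.1 and 93.4 CPM. Neither passed the test, with log2 fold changes of 0.05 (SE 0.04, edgeR adjusted p = 0.551) and -0.0021 (SE 0.04, edgeR adjusted p = 0.984). Tead4 was at 55.2, 76.5 and 56.1 CPM in acLDL-low and 58.5, 67.9 and 51.4 CPM in acLDL-high cells, higher in pair 1 and lower in pairs 2 and 3, with a log2 fold change of -0.07 (95% interval -0.19 to 0.04, edgeR adjusted p = 0.500). Tead3 was at 13.9, 11.2 and 11.03 against 13.5, 11.9 and 11.5 CPM, with a log2 fold change of 0.04 (edgeR adjusted p = 0.834). Per kilobase of exon, Tead4, Tead2 and Tead1 were at mean levels of 16.9, 16.9 and 16.5 CPM per kb over the 6 libraries, with ranges that overlap, and Tead3 was the weakest at 1.81 CPM per kb. Vgll4, whose product competes with YAP for TEAD, was at 39.1 to 50.1 CPM in acLDL-low and 42.4 to 57.0 CPM in acLDL-high cells, with a log2 fold change of 0.06 (SE 0.06, edgeR adjusted p = 0.656).

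None of the genes of the kinase cascade passed the test. The MST kinase genes Stk3 and Stk4 had log2 fold changes of 0.07 and 0.03, and the LATS kinase genes Lats1 and Lats2 of -0.04 and 0.07 (edgeR adjusted p between 0.373 and 0.713). Stk3, Stk4 and Lats2 were higher in 3 of 3 pairs, by 0.0066 to 0.11 on the log2 scale, and 40.4% of all genes tested kept 1 direction in this way. The scaffold and cofactor genes Sav1, Mob1a, Mob1b and Nf2, of which Nf2 encodes the tumor suppressor Merlin, had log2 fold changes from -0.04 to 0.08. Mob1b had the lowest adjusted p in this class, at 84.4, 79.0 and 86.4 CPM in acLDL-low and 89.3, 80.2 and 95.4 CPM in acLDL-high cells (edgeR adjusted p = 0.328). Ajuba, a LIM protein gene whose product restrains LATS, was at 128, 105 and 70.3 against 131, 114 and 65.7 CPM, with a log2 fold change of 0.02 (edgeR adjusted p = 0.893). Sav1 shares 1336 bp of exon with the opposite-strand gene Atl1, which had 159 to 408 counts in a library. Lats2 shares 2955 of its 6971 bp of exon with the same-strand gene Gm49361, which had 0 counts in every library. How reads in these shared bases were counted is not known here. For the 18 components that were not called, the fold changes lay between -0.07 and 0.09 and their 95% intervals between -0.19 and 0.21 on the log2 scale. These intervals hold for 1 gene at a time in the fit of all 3 pairs. With a pair left out, several of these genes lay outside the range of these fold changes (-0.072 to 0.0858). Without pair 2 they were Wwtr1 (0.17), Vgll4 (0.15) and Mob1b (0.11). Without pair 1 they were Tead4 (-0.15) and Amotl1 (0.097). Without pair 3 they were Amotl1 (0.10), Tead1 (0.0904) and Mob1a (-0.084).

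The angiomotins bind YAP at cell junctions and on actin. Amotl2 (chromosome 9, 102716672 to 102733418) was at 150, 114 and 104 CPM in acLDL-low and 174, 129 and 134 CPM in acLDL-high cells. It rose in all 3 pairs, by 0.22, 0.18 and 0.37, although the acLDL-high libraries of pairs 2 and 3 lay below the acLDL-low library of pair 1. The log2 fold change was 0.26 (SE 0.05, edgeR adjusted p = 0.00778), a fold of 1.19. Leaving out pair 3 gave 0.20 (SE 0.05) with an edgeR adjusted p of 0.104, so the call was lost. Calls over all genes tested also fell without pair 3, from 597 to 126. The paralogs did not pass. Amotl1 was at 295, 285 and 360 CPM in acLDL-low and 304, 316 and 371 CPM in acLDL-high cells (log2 fold change 0.08, standard error 0.04, edgeR adjusted p = 0.340), and Amot, the weakest of the family per kilobase, was at 28.3 to 35.0 against 28.4 to 36.2 CPM (log2 fold change 0.06, edgeR adjusted p = 0.587).

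**Figure D2:**
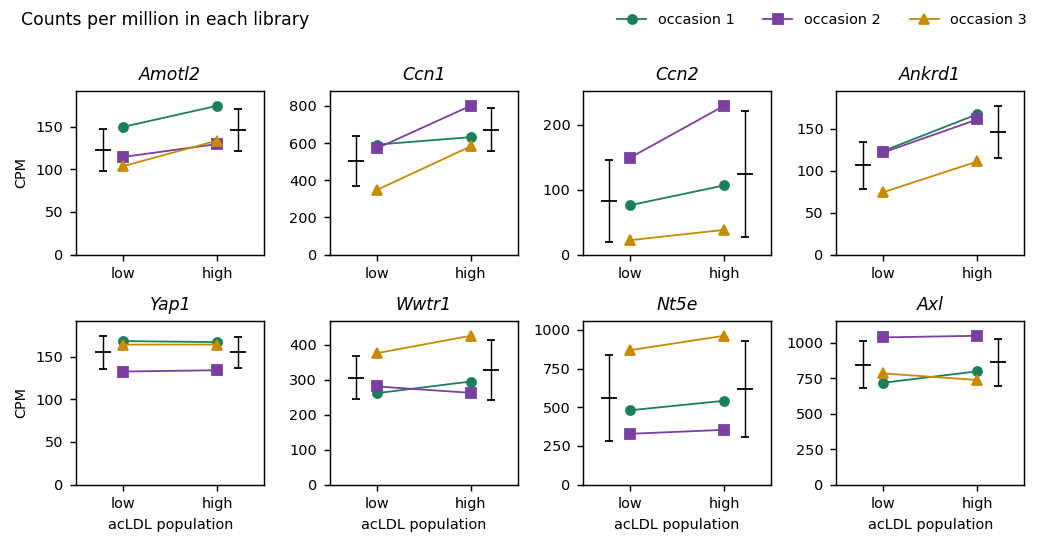
CPM in each library (y axis from 0) for the 4 called genes and for Yap1, Wwtr1, Nt5e and Axl, with lines joining the acLDL-low and acLDL-high libraries of an occasion and bars at the side for the mean and SD of 3 libraries. The lines of Amotl2, Ccn1, Ccn2 and Ankrd1 rise on every occasion while the occasions themselves stand apart, and those of Yap1 are nearly level.

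Ccn2 had the largest log2 fold change of the 35 genes. It encodes connective tissue growth factor, a secreted matricellular protein that binds integrins, and is among the most used readouts of YAP activity (chromosome 10, 24595442 to 24598683). It was at 76.0, 149 and 22.1 CPM in acLDL-low and 107, 229 and 38.1 CPM in acLDL-high cells of pairs 1, 2 and 3. Every acLDL-high library stood above its partner, by 0.49, 0.62 and 0.78 on the log2 scale, while occasion 2 stood above the others in both populations. The log2 fold change was 0.62 (SE 0.05, edgeR adjusted p = 4.24e-05), a fold of 1.54. Exons of the opposite-strand gene Gm15270 overlap 665 bp of Ccn2, and that gene had at most 60 counts in a library.

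Ankrd1 encodes a nuclear and sarcomeric ankyrin-repeat protein (chromosome 19, 36111961 to 36120099). It was at 123, 121.6 and 74.3 CPM in acLDL-low and 167, 161 and 111 CPM in acLDL-high cells. It rose on each occasion, by 0.44, 0.40 and 0.58. The log2 fold change was 0.47 (SE 0.05, edgeR adjusted p = 0.000119), a fold of 1.39.

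Ccn1, which encodes the secreted integrin ligand CYR61 (chromosome 3, 145646976 to 145649981), was the most abundant of the 36 genes per kilobase, at a mean of 291 CPM per kb. It was at 592, 571 and 347 CPM in acLDL-low and 632, 800 and 582 CPM in acLDL-high cells. The differences were uneven, with 0.09 in pair 1, 0.49 in pair 2 and 0.75 in pair 3, and acLDL-high of pair 3 still lay below acLDL-low of pair 1. The log2 fold change was 0.44 (SE 0.09, edgeR adjusted p = 0.0120), a fold of 1.36. DESeq2 gave 0.45 (adjusted p = 0.116), and the fit without pair 3 gave 0.29 with an edgeR adjusted p of 0.175. For Ccn2 and Ankrd1 the edgeR adjusted p stayed under 0.05 without pair 3, at 0.00407 and 0.00799. In all 4 called genes the difference was largest in pair 3, and the acLDL-low library of that pair was the lowest of its population.

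Among the other secreted and surface targets, Nt5e, which encodes the ectonucleotidase CD73, was at 480, 328 and 868 CPM in acLDL-low and 541, 354 and 961 CPM in acLDL-high cells. It was higher in acLDL-high cells by 0.17, 0.11 and 0.15 in the 3 pairs, but its log2 fold change of 0.14 (SE 0.04) had an edgeR adjusted p of 0.0790. Nt5e passed in 3 of 9 alternative settings. These were DESeq2 (adjusted p = 0.0211), no filter on low counts (edgeR adjusted p = 0.0362) and no pair 2 (edgeR adjusted p = 0.0475). Calls over all genes tested also rose from 597 to 932 without the filter and to 869 without pair 2. Nt5e did not pass without pair 1 or without pair 3 (edgeR adjusted p = 0.241 and 0.256). Tgfb2, a TGF-beta ligand gene, was at 10.8, 4.01 and 4.74 CPM in acLDL-low and 12.03, 5.81 and 4.75 CPM in acLDL-high cells. Its log2 fold change of 0.22 (SE 0.10, edgeR adjusted p = 0.262) came mainly from pair 2, with 0.53 against 0.15 and 0.0012 in the others. Axl, a receptor tyrosine kinase gene, and Myof, a membrane repair gene, were at 846 ± 169 against 861 ± 165 CPM and 893 ± 207 against 890 ± 194 CPM (SD, n = 3, acLDL-low against acLDL-high), with edgeR adjusted p of 0.831 and 0.994. Crim1, a transmembrane regulator of BMP ligands, had a log2 fold change of 0.09 (edgeR adjusted p = 0.424), and shares 123 bp of exon with the opposite-strand gene Fez2, which had 2973 to 4265 counts in a library. Its pair differences were 0.06, 0.26 and -0.06, and its fold change was 0.00030 without pair 2 and 0.16 without pair 3. Fjx1, a secreted kinase-like protein gene, had between 10 and 58 counts in a library. Its pair differences were 1.38, -0.73 and -0.80, and its 95% interval of -0.84 to 1.25 leaves its change unresolved at this depth. Igfbp3, with 0 counts, could lie at up to 3 counts a library, which is at most 0.0429 CPM.

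Gadd45b, a stress-response gene, was at 18.6, 19.4 and 24.4 CPM in acLDL-low and 20.1, 22.5 and 26.2 CPM in acLDL-high cells. It was higher in 3 of 3 pairs, with a log2 fold change of 0.14 (SE 0.06, edgeR adjusted p = 0.180). The kinase gene Nuak2 and the phosphatase gene Ptpn14, whose product also binds YAP, had log2 fold changes of -0.0092 and 0.07 (edgeR adjusted p = 0.964 and 0.509). That of Ptpn14 was 0.0052 without pair 2 and 0.13 without pair 3. Of the 4 regulators of small GTPases, Arhgef17, a RhoA exchange factor gene, was at 93.7, 75.1 and 77.2 CPM in acLDL-low and 110, 79.9 and 76.4 CPM in acLDL-high cells (log2 fold change 0.10, standard error 0.05, edgeR adjusted p = 0.284). Arhgap29, Dock5 and Asap1 had log2 fold changes of 0.01, 0.08 and 0.05 (edgeR adjusted p = 0.926, 0.400 and 0.675). For the 13 targets that were not called, the fold changes lay between -0.0092 and 0.22, and apart from Fjx1 their 95% intervals lay between -0.17 and 0.45. In pair 1, 14 of 16 targets were higher in acLDL-high cells, in pair 2, 15 of 16, and in pair 3, 8 of 16, although pair 3 held the largest differences of the called genes.

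**Figure D3:**
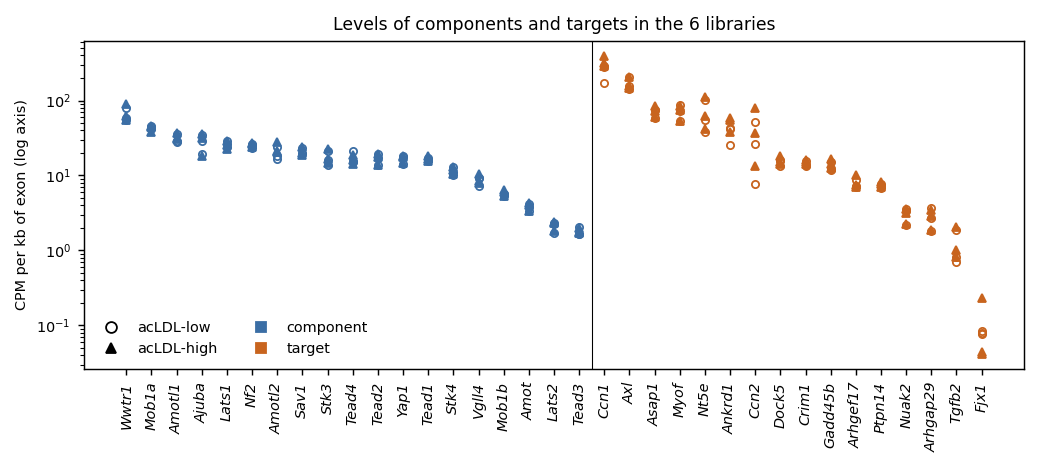
CPM per kilobase of exon (log axis) in each of the 6 libraries for the 19 components and the 16 targets with counts, ordered by mean within each list, with open circles for acLDL-low and filled triangles for acLDL-high. Components span 1.81 (Tead3) to 66.2 (Wwtr1) and targets 0.0932 (Fjx1) to 291 (Ccn1), and the libraries of the 2 populations overlap for every gene.

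TEAD factors recognize the letters GGAATG, and the promoters of the called genes are shown for where these letters fall. RefSeq promoter windows (GRCm38.p6, 250 bases before to 50 after a start site) were matched for 27 of the 36 genes, and Ccn2 was among those without a window. GGAATG, searched on both strands, was present in a window of 14 of these 27 genes, 9 of 16 components and 5 of 11 targets, against 16.6% of all 27025 genes with a window. The windows held neither TGANTCA, the AP-1 motif, which 8.97% of all genes hold, nor the CArG box of SRF, which 1.81% hold, each searched on both strands. The motifs were searched separately and none of these matches overlap. The 3 called genes with a window all held GGAATG, and so did 11 genes that were not called, of which the targets Crim1, Axl and Ptpn14 are shown beside them. Each stretch of 30 bases is given on the strand of its gene, with the match in capitals, as GGAATG or as its reverse complement CATTCC.
Amotl2 (chr9:102717727-102717756, plus strand, 65 bases before the start, within an annotated UTR): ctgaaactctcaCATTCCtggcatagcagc
Ccn1 (chr3:145650071-145650100, minus strand, 103 bases before the start): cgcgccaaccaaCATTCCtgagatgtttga
Ankrd1 (chr19:36120037-36120066, minus strand, 210 bases before the start, within an annotated UTR): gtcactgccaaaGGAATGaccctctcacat
Ankrd1 (chr19:36119950-36119979, minus strand, 123 bases before the start, within an annotated UTR): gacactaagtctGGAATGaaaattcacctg
Crim1 (chr17:78200157-78200186, plus strand, 79 bases before the start): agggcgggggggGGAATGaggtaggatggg
Axl (chr7:25788949-25788978, minus strand, 233 bases before the start): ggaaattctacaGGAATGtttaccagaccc
Ptpn14 (chr1:189728110-189728139, plus strand, 146 bases before the start): cctccccggacgCATTCCtggcccgcccag
The 250 bases before the start of Ccn1 (chr3:145649986-145650235, minus strand) lie outside its annotated exons. They are shown in full, again with the match in capitals.
Ccn1 promoter: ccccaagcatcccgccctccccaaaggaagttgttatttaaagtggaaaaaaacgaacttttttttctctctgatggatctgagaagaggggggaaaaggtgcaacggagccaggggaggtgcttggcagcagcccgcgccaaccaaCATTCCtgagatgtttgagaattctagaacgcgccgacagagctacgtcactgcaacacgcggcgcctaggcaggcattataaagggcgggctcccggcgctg
A match is a description of the letters and not of binding. Targets without the letters in these windows (Nt5e, Tgfb2, Myof, Gadd45b, Arhgap29 and Igfbp3) can hold them elsewhere.

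Levels of the pathway genes differed between occasions, as did those of most genes. Tested across the 3 occasions in the same fit, 32 of the 35 genes had an edgeR adjusted p under 0.05, all 19 components and 13 of 16 targets, against 78.0% of all genes tested. The exceptions were Crim1, Fjx1 and Ptpn14. For all 35 genes the spread between the occasions (highest minus lowest occasion, each the mean log2 CPM of its pair) exceeded the fitted difference between the populations. This sets a range of 3 values against a difference of 2 groups, and the share over all genes was not counted. The median absolute log2 fold change of all genes tested was 0.073. The median spread was 0.33 for components and 0.61 for targets, against 0.45 for all genes tested. Ccn2 had the widest, at 2.67 on the log2 scale with occasion 2 highest and occasion 3 lowest, followed by Nt5e at 1.42, where occasion 3 was highest and occasion 2 lowest. Ccn2 and Nt5e were thus ordered in opposite ways by occasion. Among components Ajuba had the widest spread, at 0.93, and Nf2 and Tead1 the narrowest, at 0.16. In the fit without the pairing, 0 of the 35 genes had an edgeR adjusted p under 0.05, as had 0 of 12329 genes tested, of which 45 had an unadjusted p under 0.05. With DESeq2 and the pairing, 470 of the 15973 genes were called.

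Further genes of the pathway were taken from a list of 52 Hippo regulators, of which 45 were tested. In each direction 1 gene was called (4.44% in all, against 4.75% of all genes tested), with a median log2 fold change of 0.04, so the share is near that of all genes. Vgll3, which encodes a TEAD cofactor of the vestigial-like family, was at 7.93, 5.78 and 3.80 CPM in acLDL-low and 11.1, 8.20 and 5.005 CPM in acLDL-high cells, higher in every pair. Its log2 fold change was 0.47 (SE 0.08, edgeR adjusted p = 0.00819). Rassf1, a scaffold gene that promotes MST signaling, was at 79.4, 62.8 and 64.9 against 72.7, 55.1 and 53.6 CPM, lower in every pair. Its log2 fold change was -0.20 (SE 0.05, edgeR adjusted p = 0.0271). Without pair 3 neither passed and 0 of the list were called, while 4 were called without pair 1 and 4 without pair 2. Over all genes tested, 126 were called without pair 3, 646 without pair 1 and 869 without pair 2.

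A list of 33 further genes named as YAP or TEAD targets was taken, of which 29 were tested. The list was chosen with earlier results of these data known, so its share of calls is no independent result. In acLDL-high cells 11 were higher and 1 lower (41.4%, against 4.75% of all genes tested), with a median log2 fold change of 0.14. Without pair 3 the count was 5. Calls over all genes tested fell as well, from 597 of 12572 to 126 of 12421 without pair 3. Thbs1, which encodes the matricellular protein thrombospondin 1, was at 779, 465 and 456 CPM in acLDL-low and 1075, 874 and 724 CPM in acLDL-high cells (log2 fold change 0.68, standard error 0.07, edgeR adjusted p = 0.000122). Ptgs2, which encodes cyclooxygenase 2, and F3, which encodes tissue factor, rose by 0.50 (edgeR adjusted p = 0.000277) and 0.49 (0.00298). Areg and Sgk1, for an EGF receptor ligand and a serum-responsive kinase, also rose, by 0.34 and 0.35, Areg in 2 of 3 pairs and Sgk1 in 3 of 3. Among the others that rose, Top2a, Cenpf, Hmmr, Ect2 and Birc5 serve chromosome segregation and cell division. Myc, a growth regulator, fell from 458, 567 and 341 to 351, 437 and 289 CPM (log2 fold change -0.33, standard error 0.05, edgeR adjusted p = 0.00115), and Ccnd1, for cyclin D1, was at 0.03 (edgeR adjusted p = 0.836).

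Genes of the cell cycle and of the early response were counted on the same fit, over which 4.75% of all genes tested were called. These lists too were chosen with earlier results of these data known. Of 15 G2/M genes, 10 were higher and 0 lower (66.7%), with a median log2 fold change of 0.30 and summed levels of 1491 to 1930 CPM in acLDL-low and 1871 to 2280 CPM in acLDL-high cells. Of 15 immediate early genes, 5 were higher and 0 lower (33.3%), with a median of 0.19 and summed levels of 2471 to 5814 against 2884 to 5802 CPM. By pair, the medians were 0.17, 0.40 and 0.28 for the G2/M list and 0.17, 0.016 and 0.35 for the immediate early list. Over the same pairs the median of the targets was 0.11, 0.17 and -0.0066, lowest in pair 3, where that of the immediate early list was highest. Each of the 4 called genes had its largest difference in pair 3, where the median of the immediate early list was also largest. Amotl2 and Ankrd1 had their smallest difference in pair 2, as that list had its smallest median. Ccn1 and Ccn2 had theirs in pair 1, where the median of the G2/M list was smallest. The order of 3 pairs cannot tell these lists apart. The part of either list in the differences of the targets was not tested.

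**Figure D4:**
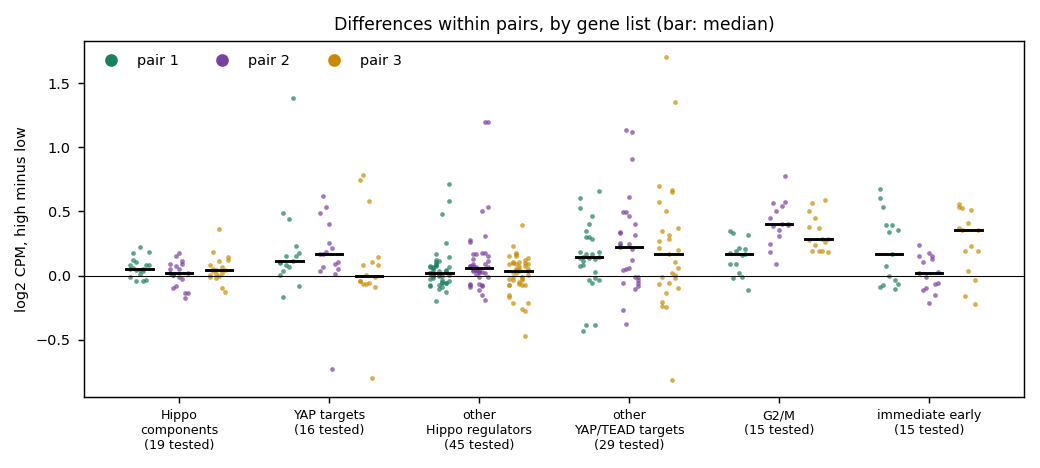
Difference in log2 CPM (acLDL-high minus acLDL-low, y axis) of each gene tested in pairs 1, 2 and 3, for the Hippo components, the YAP targets and 4 further lists of genes, with the median as a bar. Component medians lie at 0.05, 0.02 and 0.04, target medians at 0.11, 0.17 and -0.0066, and the medians of the 29 further targets at 0.15, 0.22 and 0.17.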

How the data were processed

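RNA-Seq was measured in 3 acLDL-low and 3 acLDL-high populations of 4T1-T cells. Libraries were stranded and made from polyA RNA. Per the submitters' processing notes, STAR (version 2.5.2a), featureCounts (1.4.3-p1), DESeq2 (1.20.0) and mm10 were used. The authors deposited raw counts per gene for 53379 gene IDs. The annotation release and the strand setting of the counting are not given in the sources used here. The authors' table of their own comparison (mean normalized counts, fold changes, errors, test statistics and p-values) was used only for its gene IDs and symbols, which set the 15973 protein-coding genes.

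The deposited counts entered edgeR 4.0.16 under R 4.3.3. Genes were kept with filterByExpr (12572 genes), scaled by TMM, and compared by the quasi-likelihood test in a model that held the occasion (replicate number) as its block, since the study's methods included replicate information and the series text describes separate occasions. The block was checked. Libraries with the same number deviated together from their population means, with correlations of 0.795, 0.846 and 0.799 across genes, against -0.557 to -0.0882 for other numbers. No library repeated another (chi-square per degree of freedom of 21.3 or more). Benjamini-Hochberg adjustment ran over all genes tested, at a threshold of 0.05. Standard errors are the log2 fold change divided by the root of the F statistic. Pair differences are differences of log2 CPM with a prior count of 2. Levels per kilobase use all exons of GENCODE M21 (GRCm38, the assembly of mm10). Floors and intervals cover counting or replicate error only.

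Genes named are the 36 members, with every library given for those called, for Yap1, Wwtr1, the Tead genes, Ccn1, Ccn2 and Ankrd1, and for the 6 others with the smallest adjusted p, and genes of the further lists that were called, of which 1 is not reported here. Ajuba, Myc, Ccnd1 and marker genes are also given with values. The members and lists were chosen with earlier results of these data known. Alternatives were a fit with no block, scaling as in DESeq2, the DESeq2 test itself (1.42.0), other filters, all gene IDs, each pair left out and a threshold of 0.01. The test was tested on simulated data for this comparison (12461 genes), with 15 false calls. There, 93 of 100 genes changed by 1 on the log2 scale and 84 of 100 changed by 0.5 were recovered. Smaller changes were not simulated, so these rates do not cover the changes of most members.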

Additional observations from a re-analysis of the deposited data

How the results depend on the processing

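Calls depended most on the pairing and on pair 3. With no replicate block, counts of called genes fell to 0 for all genes tested (597 in the blocked fit), the components, the targets and both further lists, and the fold changes of the 4 called members, 0.25 for Amotl2, 0.42 for Ccn1, 0.60 for Ccn2 and 0.46 for Ankrd1, had an edgeR adjusted p of 1.00. Over all genes tested, the count was 932 without the low-count filter, 199 at an adjusted p under 0.01, and 126 to 869 with a pair left out, lowest without pair 3. With a pair left out, 0 to 2 components, 2 to 4 targets, 0 to 4 further Hippo regulators and 5 to 13 further targets were called. At an adjusted p under 0.01 the last 2 counts were 1 and 7. Of 314 values of members under an alternative, 278 kept their direction and their side of the threshold, 7 lost the call, 4 gained it and 25, of 12 genes, changed sign, none of which was called before or after. The sign of Tead2 changed to 0.0019 with no replicate block, 0.00093 with DESeq2's size factors, 0.0015 with DESeq2, 0.0047 without the filter, 0.0080 with all gene IDs, and lay at -0.0070 to 0.0012 with a pair left out. That of Myof changed to 0.00096, 0.0022, 0.0028, 0.0060 and 0.0093 under the same settings, and lay at -0.021 to 0.023 with a pair left out. That of Nuak2 changed to 0.00069 with all gene IDs and lay at -0.057 to 0.076 with a pair left out. Others changed sign only with a pair left out, with ranges of -0.0065 to 0.0097 for Yap1, -0.0085 to 0.15 for Vgll4, -0.00098 to 0.036 for Sav1, -0.084 to 0.0053 for Mob1a, -0.034 to 0.074 for Ajuba, -0.86 to 0.60 for Fjx1, -0.035 to 0.086 for Axl, -0.020 to 0.070 for Arhgap29 and -0.019 to 0.10 for Asap1. The causes were not tested.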
